A study of Mus musculus with 2 samples.

Results

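The 10 genes described here encode heat shock chaperones and were chosen by symbol from a fixed list, out of 54838 genes in the files. All 10 were found. Hspa1a, Hspa1b, Hsph1, Dnajb1, Hspb1 and Hsp90aa1 were grouped as inducible cytosolic members (6 genes), Hspa8 and Hsp90ab1 as constitutive cytosolic members (2 genes), and Hspd1 and Hspe1 as the mitochondrial chaperonin (2 genes). The measurements come from 2 single-cell libraries of live immune cells sorted from mouse intestine after 10 Gy of X-rays, 1 from Dpf2 knockout (KO) mice and 1 from wild-type (WT) mice. The series asks about Dpf2, a subunit of the BAF chromatin remodelling complex, in radiation injury of the intestine. Both genotypes were irradiated, so neither library is an unirradiated baseline. The labels give neither the time after irradiation, the age or number of mice, nor the exon or cell type in which Dpf2 was deleted. The intestinal cells had been digested for 30 min at 37 °C and then sorted on a viability dye, GFP and tdTomato. The labels do not say what either reporter marked.

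Heat shock proteins bind unfolded protein and help it to refold. HSP70 proteins, encoded by Hspa1a and Hspa1b (inducible) and Hspa8 (constitutive), take up short unfolded stretches. HSP40 proteins such as Dnajb1 deliver clients to them, and HSP110 (Hsph1) exchanges their nucleotide so that the client is released. HSP90 proteins (inducible Hsp90aa1, constitutive Hsp90ab1) act later on kinases and receptors. Hspb1 is a small holding chaperone, and Hspd1 with Hspe1 forms the folding chamber of mitochondria. Under stress the heat shock factor HSF1 binds heat shock elements, repeats of GAA and TTC, and raises transcription. In dissociated tissue the same genes are also known to respond to enzyme digestion and warming of the cells.

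Promoters of the HSP70 pair, of Hsph1 and of the chaperonin pair are shown because those genes behaved differently below although each holds heat shock element letters. Each is the 250 bases before the RefSeq start site (GRCm38.p6), on the gene's strand, with matches to GAANNTTC or TTCNNGAA in capitals.
Hspa1a, chr17:34972157-34972406, minus strand: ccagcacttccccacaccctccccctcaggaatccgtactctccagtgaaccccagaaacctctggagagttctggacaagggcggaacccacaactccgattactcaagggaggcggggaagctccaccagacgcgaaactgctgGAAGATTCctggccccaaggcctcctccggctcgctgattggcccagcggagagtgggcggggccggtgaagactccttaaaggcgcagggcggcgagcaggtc
Hspa1b, chr17:34959239-34959488, minus strand: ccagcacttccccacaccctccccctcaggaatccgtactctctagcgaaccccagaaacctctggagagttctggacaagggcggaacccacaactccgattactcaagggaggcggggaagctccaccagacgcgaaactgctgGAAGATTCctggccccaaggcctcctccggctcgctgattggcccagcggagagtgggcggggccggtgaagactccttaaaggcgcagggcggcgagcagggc
Hsph1, the first of its 2 start sites, chr5:149636316-149636565, minus strand: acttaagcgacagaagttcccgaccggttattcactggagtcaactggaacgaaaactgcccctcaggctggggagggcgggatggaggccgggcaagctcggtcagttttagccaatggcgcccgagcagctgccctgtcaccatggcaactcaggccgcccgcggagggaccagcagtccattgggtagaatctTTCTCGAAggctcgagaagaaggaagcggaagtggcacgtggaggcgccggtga
Hspe1, chr1:55087898-55088147, plus strand: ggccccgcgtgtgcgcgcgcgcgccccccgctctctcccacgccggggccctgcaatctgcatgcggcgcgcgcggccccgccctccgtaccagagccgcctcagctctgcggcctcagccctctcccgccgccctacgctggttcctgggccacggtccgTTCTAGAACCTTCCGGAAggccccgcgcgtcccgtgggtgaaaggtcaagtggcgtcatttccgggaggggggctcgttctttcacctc
The Hspa1a and Hspa1b windows were the same at 247 of 250 bases (98.8%) and held 1 match each. Hspe1 and Hspd1 are transcribed away from each other, and the Hspe1 window and 1 of the 2 Hspd1 windows held the same run of 3 overlapping matches, which includes the longer forms GAANNTTCNNGAA and TTCNNGAANNTTC. RefSeq windows were found for 7 of the 10 members and 6 of these had a match. Neither window of Dnajb1 had one. Both motifs read the same on either strand, and 12.8% of 32851 promoters of this length held at least 1 of them, while 0.466% held a longer form. A match is a description of letters and says nothing of binding.

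After filtering, 8265 KO cells (median 4112 UMIs and 1758 genes) and 10259 WT cells (median 4543 UMIs and 1883 genes) were kept, with 45042048 and 57454263 UMIs. A UMI marks 1 captured RNA molecule. The level of a gene is its UMIs summed over a cell class per 1000000 UMIs of that class (CPM), and the ratio is KO over WT. With 1 library per genotype there is no replicate check and no test, and the intervals given (95%) cover counting error only. Dpf2 itself stood at 19.6 CPM in KO against 33.3 in WT (ratio 0.589, 0.543 to 0.638) and was lower in KO in all 10 compared classes. The interval of its ratio included 1 in neutrophils (0.592, 0.277 to 1.30, on 19 KO and 13 WT UMIs). It also did in group 2 innate lymphoid cells (0.548, 0.215 to 1.30, on 9 KO and 17 WT UMIs). The libraries share 24 cell barcodes. The KO library stood apart in Paneth cell transcripts: all 10 genes of that list were found, and their summed level was higher in KO in every compared class, between 51.2 and 207.6 CPM in KO against 3.30 to 47.8 in WT. Each library held both Xist-only and Y-linked-only cells. Cell classes are named from marker genes and are short for cells like that type. Of these, 10 had at least 100 cells in both libraries. A cluster led by Il17a and Il23r was kept as a class of its own. It met the T cell rule given under processing, but that name was withdrawn. Against cells outside the T cell class, its 10 leading genes held 2 markers of group 3 innate lymphoid cells and 0 of T cells.

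The inducible HSP70 genes were the members that differed most, and they were higher in the KO library in almost every class. Over all kept cells Hspa1a (chromosome 17, 34969190 to 34972156) stood at 313 CPM in KO against 141 in WT (ratio 2.22, 2.16 to 2.29), and Hspa1b (chromosome 17, 34956436 to 34959238) at 712 in KO against 298 in WT (ratio 2.39, 2.35 to 2.44). Hspa1a was higher in 10 of 10 compared classes and Hspa1b in 9 of 10. The exception was Hspa1b in neutrophils, with 172 CPM in KO and 185 in WT (ratio 0.933, 0.720 to 1.22). The transcripts of this pair are near copies: 49.3% of the 90-base windows of Hspa1a also occur in Hspa1b, though none of those in its last 500 bases do. How the authors' counting split reads between them is not known, so the sum of the pair is used from here on where one value is given.

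In T cells the pair stood at 1049.7 CPM in KO against 241.6 in WT (ratio 4.34, 4.16 to 4.53). Group 2 innate lymphoid cells (ILC2) had 1591 in KO and 359 in WT (ratio 4.43, 3.82 to 5.15), and plasma cells 476 in KO and 133 in WT (ratio 3.57, 3.35 to 3.81). Over all cells of each class, the Il17a cluster had the widest gap of the compared classes, with 649.7 in KO and 102 in WT (ratio 6.39, 5.72 to 7.15). It did not have the widest among cells without Paneth cell UMIs, as given below. These 4 classes were lymphoid.

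Smaller gaps were found elsewhere. NK cells had 1688 CPM in KO and 719.9 in WT (ratio 2.34, 2.18 to 2.53), and B cells 921 in KO and 431 in WT (ratio 2.14, 2.04 to 2.24). Conventional dendritic cells had 585 in KO and 332 in WT (ratio 1.76, 1.67 to 1.85). Neutrophils had 332 in KO and 282 in WT, and the interval of their ratio included 1 (1.18, 0.962 to 1.45). Group 3 innate lymphoid cells (ILC3) had the highest level in both libraries, 7275 in KO and 4048 in WT (ratio 1.80, 1.72 to 1.87). In the KO library the order from the top was ILC3, NK cells, ILC2, T cells, B cells, monocytes or macrophages, the Il17a cluster, dendritic cells, plasma cells and neutrophils. Neighbouring intervals in that order overlapped for NK cells with ILC2 and for monocytes or macrophages with the Il17a cluster. Fibroblasts, endothelial and smooth muscle cells, grouped as stromal cells and too few to be compared in KO (95 cells, against 565 in WT), had 2468 in KO and 2317 in WT.

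**Figure D1:**
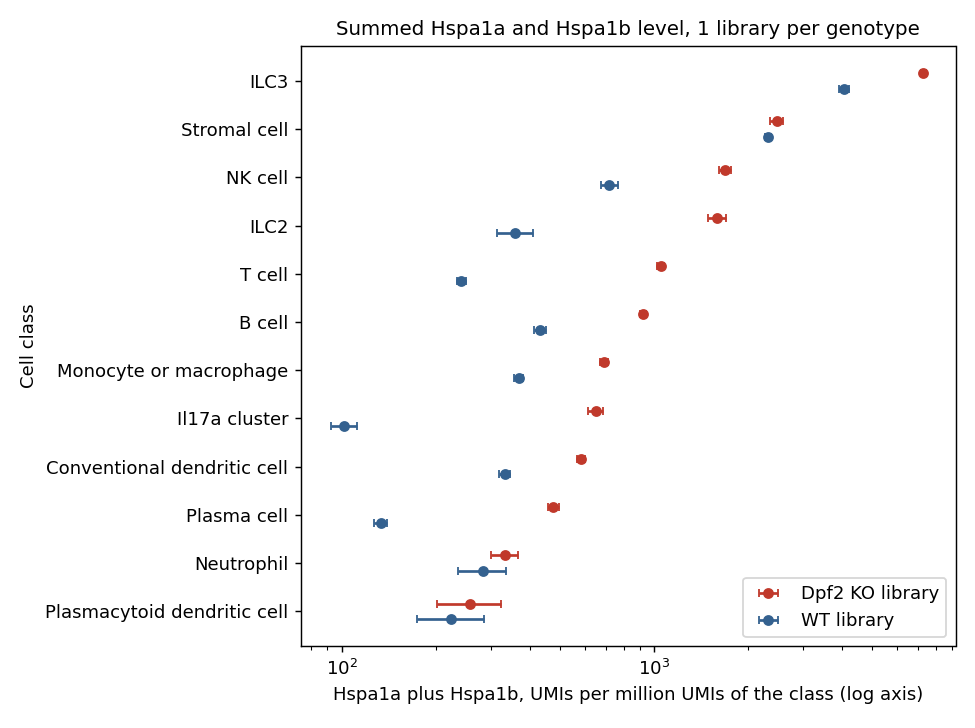
Summed Hspa1a and Hspa1b level in each cell class (CPM, log axis) in the Dpf2 KO library (red) and the WT library (blue), 1 library each. Points are levels and bars 95% Poisson intervals. ILC3 stand highest in both libraries (7275 in KO and 4048 in WT), and the intervals of KO and WT are apart in all compared classes except neutrophils.

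Among the other inducible members Hsph1 followed the HSP70 pair and Hsp90aa1 did so less steeply. Hsph1 (chromosome 5, 149614287 to 149636376) was higher in KO in 10 of 10 classes, with 259 CPM in KO against 108 in WT in T cells (ratio 2.41, 2.24 to 2.59), 322 against 148 in NK cells (ratio 2.18, 1.85 to 2.58) and 661 against 414 in ILC3 (ratio 1.60, 1.397 to 1.83). In dendritic cells the interval of its ratio included 1 (1.09, 0.959 to 1.23), but their clusters went both ways. Hsph1 was higher in KO in the dendritic cell cluster led by Ccl22 (ratio 1.39, 1.18 to 1.64). It was lower in the cluster led by Cadm1 (ratio 0.792, 0.645 to 0.971), where the pair was higher (ratio 1.51, 1.38 to 1.65). Hsp90aa1 (chromosome 12, 110690605 to 110702728) was also higher in 10 of 10, between 1.002-fold in neutrophils and 1.83-fold in ILC2. Its T cell level was 727 in KO and 505 in WT (ratio 1.44, 1.38 to 1.496).

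Dnajb1 (chromosome 8, 83608193 to 83612653) did not move one way. It was higher in KO in 6 of 10 classes, among them T cells with 124 CPM in KO against 68.6 in WT (ratio 1.80, 1.63 to 1.99) and ILC2 with 135 against 62.6 (ratio 2.15, 1.44 to 3.26). It was lower in ILC3, with 353 in KO against 436 in WT (ratio 0.809, 0.700 to 0.936), and in plasma cells, with 40.6 against 48.2 (ratio 0.841, 0.713 to 0.990). Hspb1 (chromosome 5, 135887919 to 135889563) was nearly absent from immune cells, at 0 to 13.5 CPM in KO and 0 to 10.3 in WT, and passed the count filter in 0 classes. Stromal cells, which are known to express it, had 190 in KO and 168 in WT, but their clusters went both ways. Hspb1 was lower in KO in endothelial cells (279 in KO and 381 in WT, ratio 0.733, 0.569 to 0.937). It was also lower in fibroblasts led by Dcn (38.1 in KO and 172 in WT, on 5 KO UMIs). In fibroblasts led by Adamdec1 it was higher (46.1 in KO and 6.21 in WT, on 7 and 6 UMIs).

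The constitutive and mitochondrial members showed no direction shared by all classes. All 4 were lower in KO in plasma cells and dendritic cells, and all 4 were higher in NK cells and ILC2. Hsp90ab1 (chromosome 17, 45567775 to 45573271) was higher in KO in 6 of 10 classes and Hspa8 (chromosome 9, 40800984 to 40810087) in 6 of 10. In T cells Hsp90ab1 had 1145 CPM in KO and 1125 in WT (ratio 1.02, 0.988 to 1.05), and Hspa8 had 748 in KO and 658 in WT (ratio 1.14, 1.09 to 1.18). Hspa8 was lower in dendritic cells, with 570 in KO and 824 in WT (ratio 0.692, 0.665 to 0.721), and in monocytes or macrophages, with 651 in KO and 869 in WT (ratio 0.750, 0.724 to 0.777).

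Hspd1 (chromosome 1, 55077835 to 55088243) was higher in KO in 8 of 10 classes and Hspe1 (chromosome 1, 55088132 to 55091307) in 2 of 10, although they form 1 complex and share the promoter run shown above. Many of these differences were within counting error. The interval of the Hspd1 ratio lay above 1 in 2 classes and below 1 in 2. That of Hspe1 lay above 1 in 2 and below 1 in 4. In ILC3 Hspd1 had 224 CPM in KO and 151 in WT (ratio 1.48, 1.19 to 1.87), while Hspe1 had 324 in KO and 361 in WT (ratio 0.898, 0.769 to 1.05). Both were lower in plasma cells, Hspd1 with 43.2 in KO and 67.4 in WT (ratio 0.641, 0.549 to 0.747) and Hspe1 with 62.5 in KO and 112 in WT (ratio 0.557, 0.491 to 0.631). A cluster of dividing, deeply sequenced cells led by Mki67 made up 0.976% of KO plasma cells (6 cells) and 7.22% of WT plasma cells (95 cells). In the main plasma cell cluster alone, Hspe1 had 58.1 in KO and 87.3 in WT (ratio 0.665, 0.580 to 0.761), and the interval for Hspd1 included 1 (40.02 in KO and 46.2 in WT, ratio 0.866, 0.729 to 1.03).

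A gene was called apart where its levels differed at least 2-fold after 10 CPM was added to each, among genes that had 100 or more UMIs in the class (libraries summed) and were seen in 5% or more of its cells in KO or in WT. In T cells 3 members were higher by that rule (Hspa1a, Hspa1b and Hsph1), where 0.328% of 7314 genes were. In the Il17a cluster the same 3 were higher (background 0.293%), as in NK cells (0.295%) and ILC2 (1.47%). Plasma cells had 2, Hspa1a and Hspa1b (0.487%), and B cells 1, Hspa1b (0.0715%). There were 0 in monocytes or macrophages (0.577%), dendritic cells (0.726%), ILC3 (0.343%) and, among members that passed the filter, neutrophils (4.55%). Hsph1 in neutrophils passed the fold with 45 UMIs in KO and 4 in WT, too few for the filter. No constitutive or mitochondrial member was 2-fold apart in either direction in any of the 10 classes. Genes lower in KO by the same rule made up 0.588% of those tested in T cells, 0.4% in B cells, 0.687% in monocytes or macrophages, 1.06% in plasma cells and 0.381% in dendritic cells. They made up 0.847% in the Il17a cluster, 2.19% in neutrophils, 0.566% in NK cells, 0.629% in ILC3 and 0.826% in ILC2.

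By group, the median log2 ratio of the 6 inducible members was 0.98 in T cells, where that of the 4 constitutive and mitochondrial members was 0.03 and that of all genes passing the filter was -0.0032. The same pair of medians was 0.63 and 0.10 in B cells, 0.85 and 0.28 in NK cells, 1.09 and 0.21 in ILC2, 0.58 and 0.18 in ILC3 and 0.99 and 0.06 in the Il17a cluster. In plasma cells it was 0.25 and -0.51, in dendritic cells 0.25 and -0.40 and in monocytes or macrophages 0.43 and -0.05. In plasma cells the median of all genes passing the filter was itself shifted, at -0.15, and relative to it the medians were 0.40 for inducible and -0.36 for the other members. Neutrophils had 0.06 and 0.09, the one compared class where the inducible median was not the higher.

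**Figure D2:**
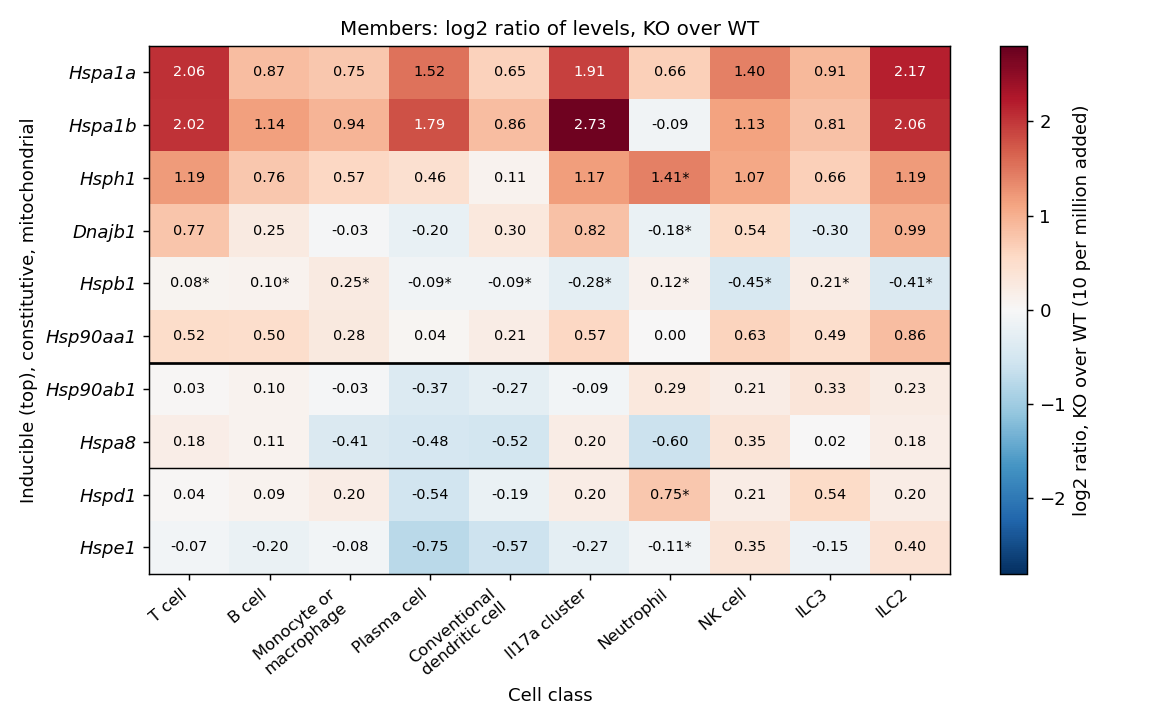
Log2 ratio of levels (KO over WT, after adding 10 CPM) of each member (rows) in each compared class (columns). Red is higher in KO, and an asterisk marks a member that did not pass the count filter in that class. Hspa1a and Hspa1b reach 2.06 and 2.02 in T cells, while the rows below the thick line stay between -0.75 and 0.75.

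The monocyte or macrophage class had a higher HSP70 level in KO as a whole, and a much smaller gap inside its clusters. The class stood at 691 CPM in KO and 369 in WT (ratio 1.87, 1.79 to 1.958). Its monocyte cluster, led by Lyz2, had 276 in KO and 256 in WT (ratio 1.08, 1.01 to 1.14), and its macrophage cluster, led by C1qa, had 3062 in KO and 2960 in WT (ratio 1.03, 0.966 to 1.11). Macrophages made up 20.7% (18.3 to 23.2) of the class in KO and 6.38% (5.20 to 7.72) in WT, and held 66.1% of the pair's UMIs in KO and 33.4% in WT. With clusters weighted alike, the log2 ratio in this class was 0.19 for Hspa1a and -0.01 for Hspa1b, against 0.75 and 0.94 without weighting.

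In lymphoid clusters the gap was present inside clusters. The 4 T cell clusters with at least 20 cells in both libraries had 1422 CPM in KO and 249 in WT (cluster led by Klrc1, ratio 5.71, 5.28 to 6.18), 966 and 260.2 (Il12rb2, ratio 3.71, 3.45 to 3.996), 408 and 141 (Ikzf2, ratio 2.90, 2.53 to 3.32) and 1710 and 1041 (Lef1, ratio 1.64, 1.49 to 1.81), KO first in each pair. The Lef1 cluster, which had the highest WT level of the 4, had the smallest ratio, and made up 23.4% of KO and 5.93% of WT T cells. The main plasma cell cluster had 463 in KO and 143 in WT (ratio 3.24, 3.04 to 3.47). The stromal class hid opposite values: endothelial cells (Selp) had 3165 in KO and 1492 in WT (ratio 2.12, 1.94 to 2.32), and fibroblasts led by Dcn 3776 in KO and 4394 in WT (ratio 0.860, 0.783 to 0.942), on 22 KO cells. Fibroblasts themselves went both ways, since those led by Adamdec1 had 777 in KO and 361 in WT (ratio 2.15, 1.73 to 2.66), on 21 KO cells. Across the 15 clusters of compared classes with at least 20 cells in both libraries, Hspa1a was higher in KO in 15, Hsp90aa1 in 15, Hspa1b in 13, Hsph1 in 13 and Dnajb1 in 10. Of the others Hspd1 was higher in 11, Hspa8 in 8, Hsp90ab1 in 7 and Hspe1 in 4, and Hspb1, on very few UMIs, in 8.

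**Figure D3:**
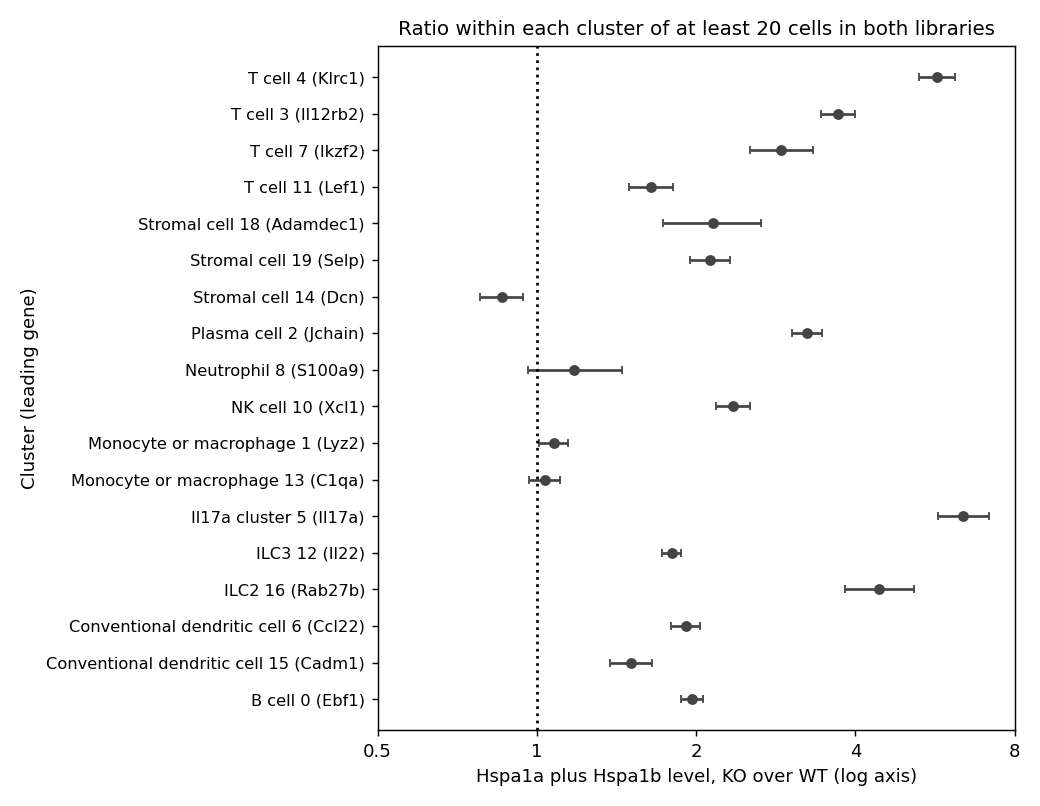
Ratio of the summed Hspa1a and Hspa1b level, KO over WT (log axis), in each cluster with at least 20 cells in both libraries, labelled by class, cluster number and leading gene. Points are ratios, bars 95% intervals of counting error, and the dotted line marks 1. Both monocyte or macrophage clusters lie close to 1 (1.08 and 1.03), and the T cell clusters between 1.64 and 5.71.

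Whether all cells or a few strongly positive ones carried the gap was read after thinning every cell to 1000 UMIs, which left out 312 shallower cells in KO and 424 in WT. HSP70 transcript was unevenly spread in both libraries: the variance of UMIs per cell was 6.71 times the mean in KO T cells and 6.76 times in WT T cells. The median cell had 0 UMIs in all compared classes of both libraries, except KO ILC3, where it had 3.

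Positive cells were more frequent in KO, and so were strongly positive ones. In T cells the share with at least 1 UMI of the pair was 38.3% (35.5 to 41.2) in KO, against 12.3% (11.2 to 13.6) in WT. The share with at least 3 was 16.9% (14.8 to 19.2) in KO, against 2.81% (2.24 to 3.47) in WT. Without thinning, 65.5% of KO and 28.1% of WT T cells held a UMI. In B cells the shares with at least 1 were 34.5% (32.6 to 36.4) in KO and 16.0% (13.9 to 18.3) in WT, in plasma cells 24.9% (21.5 to 28.6) in KO and 8.08% (6.66 to 9.70) in WT, and in ILC3 71.0% (65.0 to 76.6) in KO and 49.6% (40.4 to 58.8) in WT. In dendritic cells the intervals overlapped, at 24.2% (20.95 to 27.8) in KO and 21.5% (18.3 to 24.8) in WT. With thinning to 2000 UMIs the dendritic cell shares were 40.3% in KO and 28.5% in WT. No class here is known to lack HSP70, so no class gives a background share of free RNA. The lowest share of a compared class was 20.9% in KO (Il17a cluster) and 7.16% in WT (also the Il17a cluster), and the median depths of the KO and WT T cells were 3970 and 3922 UMIs.

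The thinned T cell ratio of 4.48 was the product of a 3.10-fold larger share of positive cells and a 1.44-fold higher mean among positive cells (3.50 UMIs in KO and 2.43 in WT). In B cells the factors were 2.15 for the share and 1.01 for the mean, and in NK cells 2.58 and 0.961, so that positive cells held about as many UMIs in both libraries. In the Il17a cluster they were 2.92 and 2.29, in ILC3 1.43 and 1.34, and in dendritic cells 1.13 and 1.45. At this depth dendritic cells were the compared class, besides monocytes or macrophages (1.38 and 1.56), in which the mean was the larger factor. At 2000 UMIs per cell the dendritic cell shares were further apart (40.3% in KO and 28.5% in WT), and the factors were not computed there. The monocyte or macrophage factors are of a class whose clusters were mixed differently in the 2 libraries. Inside them, the share with at least 3 UMIs was 1.73% in KO and 1.83% in WT monocytes. In macrophages it was 36.7% in KO and 36.9% in WT. T cell clusters were mixed differently too, with the Lef1 cluster at 23.4% of KO and 5.93% of WT T cells. Its share with at least 3 UMIs was 31.2% in KO and 14.4% in WT. That share was 19.0% and 2.65% in the Klrc1 cluster, 12.0% and 2.01% in the Il12rb2 cluster and 5.43% and 1.54% in the Ikzf2 cluster. The part of this mix in the T cell shares and factors was not tested.

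The few strongest cells took a smaller portion of the total in KO in 9 of the 10 classes, dendritic cells being the exception (54.4% in KO and 50% in WT). The 5% of T cells highest in the pair held 42.7% of its thinned UMIs in KO and 74.8% in WT, and the same portion in B cells was 46.2% in KO and 68.3% in WT. With the 5% highest cells left out of each class and library, the T cell level was 697 CPM in KO and 92.7 in WT (ratio 7.52, against 4.34 with all cells). NK cells had 969 and 153 in KO and WT (ratio 6.35, against 2.34), and B cells 574 and 184 (ratio 3.12, against 2.14). The T and NK cell gaps were thus wider without the strongest cells. Cells were ranked by the pair itself, and fewer were positive in WT (12.3% of T cells, against 38.3% in KO). A fixed 5% cut therefore took a larger part of the positive cells in WT. These portions and ratios are thus tied to the shares above and do not show separately which cells carried the gap. In dendritic cells the ratio was 1.63 without them and 1.76 with them.

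**Figure D4:**
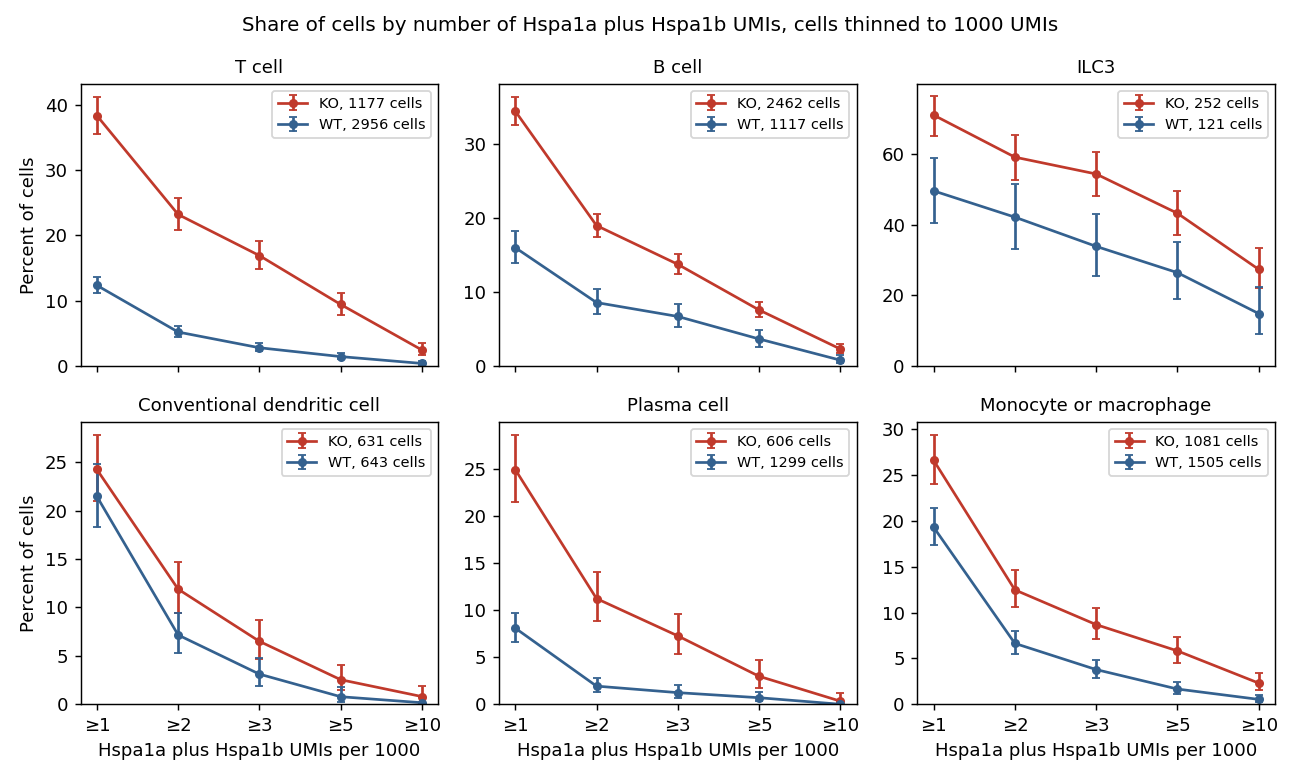
Percent of cells (vertical axis) with at least 1, 2, 3, 5 or 10 UMIs of Hspa1a plus Hspa1b (horizontal axis) after thinning to 1000 UMIs per cell, in KO (red) and WT (blue) for 6 classes, with exact binomial 95% intervals. Vertical scales differ between panels. In T cells 38.3% of KO and 12.3% of WT cells hold at least 1 UMI, and in dendritic cells 24.2% and 21.5%.

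Cells strong in HSP70 were strong in its partners in both libraries. T cells with at least 3 UMIs of the pair (199 in KO, 83 in WT) were set against those with 0 (726 in KO, 2591 in WT). Hsph1 stood at 619 CPM in the strong KO cells against 164 in KO cells with 0 (ratio 3.77, 3.32 to 4.28), and at 613 in the strong WT cells against 89.97 in WT cells with 0 (ratio 6.82, 5.78 to 8.01). Over the 10 classes the median ratio of strong to zero cells was 6.07 in KO and 6.30 in WT for Hsph1, 3.76 and 5.35 for Dnajb1, 2.37 and 2.41 for Hsp90aa1, 1.75 and 2.13 for Hspa8 and 1.30 and 1.29 for Hsp90ab1. For the mitochondrial pair it was 2.25 and 1.69 for Hspe1 and 1.62 and 1.51 for Hspd1. Hspb1, on very few UMIs, had 8.77 in KO and 1.42 in WT. Hsph1, Dnajb1 and Hsp90aa1 thus had larger medians than Hspa8 and Hsp90ab1 in both libraries. Some WT groups of strong cells were small, with 4 in ILC2 and 5 in neutrophils. Strong T cells were shallower than T cells with 0, with a median of 3135 against 4224 UMIs in KO and 3149 against 4012 in WT, and had a higher median share of mitochondrial UMIs, 2.67% against 1.93% in KO and 2.14% against 1.60% in WT. The share of strong cells also differed between T cell clusters, for example 5.43% (Ikzf2) and 31.2% (Lef1) in KO. The part of depth, RNA quality and cluster mix in these ratios was not tested.

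The Hsph1 gap between the libraries was smaller among strong cells than among cells with no HSP70 UMI in T, NK and B cells. Strong cells had 619 CPM in KO and 613 in WT among T cells (ratio 1.01, 0.844 to 1.21), 1037 and 1036 among NK cells (ratio 1.0007, 0.782 to 1.29) and 616 and 641 among B cells (ratio 0.960, 0.810 to 1.14). Over the 9 classes where strong cells gave a ratio, its interval included 1 in 8, some of them wide for want of cells. In strong dendritic cells Hsph1 had 332 in KO and 166 in WT (ratio 1.998, 1.34 to 3.08). Among cells with 0 UMIs of the pair, Hsph1 had 164 in KO and 89.97 in WT T cells (ratio 1.82, 1.65 to 2.02) and 121 in KO and 82.9 in WT B cells (ratio 1.47, 1.29 to 1.67). In such cells it was higher in KO in 9 of 10 classes, dendritic cells being the exception (46.3 in KO and 59.0 in WT), and Hsp90aa1 was higher in 9 of 10, plasma cells being the exception. Cells with 0 UMIs after thinning may hold HSP70 transcript that was not sampled.

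Genes whose levels ran most like those of the pair were sought over the 20 points given by 10 classes and 2 libraries, among 1430 genes that passed the filter in every class. Hsp90aa1 had the highest Pearson correlation, 0.86. The 5 highest genes that are not members were Ranbp2 (0.76), Senp2 (0.75), Fosb (0.75), Arl5b (0.74) and Irs2 (0.70). The points share 2 libraries, and ILC3 lie far from the rest. Hsph1 (0.81) and Dnajb1 (0.86) did not pass the filter in every class. Within T cells the correlations per cell were weak. Hsph1 led in both libraries (0.37 in KO and 0.31 in WT), and of genes that are not members Bcl2 was highest in KO (0.26) and Igfbp4 in WT (0.23). Both Bcl2 and Igfbp4 were among the leading genes of the Lef1 cluster. That cluster had the highest level of the pair among T cell clusters (1710 CPM in KO and 1041 in WT). The correlations ran over all T cells, and the part of that cluster in them was not tested.

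Other HSF1 targets and co-chaperones went both ways. Of 30 other HSF1 targets and co-chaperones, 26 passed the filter in T cells, 0 were 2-fold apart in either direction, 14 were higher in KO, and the median log2 ratio was 0.07, with a range from -0.66 (Mrpl18) to 0.65 (Dnaja1). In neutrophils the median of the 10 that passed the filter was -0.37, where that of all genes was 0.06. None of the genes of this list that passed the filter was 2-fold apart in any of the 10 classes. Among its genes with the highest levels, Ubb had 421 CPM in KO T cells against 549 in WT (ratio 0.766, 0.731 to 0.803), and the HSP40 gene Dnajb6 had 560 against 582 (ratio 0.963, 0.923 to 1.004). The HSP40 gene Dnaja1, singled out after the values were seen for the largest log2 ratio of the list in T cells, had 489 against 307 (ratio 1.59, 1.52 to 1.67). Bag3, a nucleotide exchange factor of HSP70 and a known HSF1 target, also chosen after the values were seen, had 53.4 against 36.7 (ratio 1.45, 1.25 to 1.68).

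The heat shock factors and their regulators (8 genes, 6 passing the filter in T cells) were not 2-fold apart in any class. Hsf1 had 28.6 CPM in KO T cells and 25.4 in WT (ratio 1.12, 0.923 to 1.36). Ier5, which in human cells is known to activate HSF1, had 187 in KO and 141 in WT (ratio 1.33, 1.23 to 1.44), and its relative Ier5l had 46.8 in KO and 20.8 in WT (ratio 2.25, 1.90 to 2.68), which after the added 10 CPM fell short of 2-fold. The 8 subunits of the cytosolic CCT chaperonin had a median log2 ratio of -0.02 in T cells and -0.38 in plasma cells, with 0 of 8 apart. Of the mitochondrial chaperones other than Hspd1 and Hspe1, Hspa9 (mitochondrial HSP70) had 187 in KO and 129 in WT T cells (ratio 1.45, 1.34 to 1.57).

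Chaperones of the endoplasmic reticulum had a lower level in KO, most widely in plasma cells. All 14 passed the filter in plasma cells, where 11 were at least 2-fold lower (background 1.06% of genes) and the median log2 ratio was -1.31. Hspa5, the HSP70 of that compartment, had 988 CPM in KO plasma cells against 2511 in WT (ratio 0.394, 0.382 to 0.406), and Hsp90b1, its HSP90, had 1466 against 3997 (ratio 0.367, 0.358 to 0.376), while Hspa1b had 319 against 85.2 in the same cells. In the main plasma cell cluster alone, without the dividing cells, 11 of the 14 were again 2-fold lower and the median was -1.15, a split chosen after the data were seen. In T cells 1 of 14 was 2-fold lower (background 0.588%), Sdf2l1 with 9.89 in KO and 30.9 in WT. The median of the list was below 0 in all 10 classes, between -1.31 in plasma cells and -0.20 in ILC2. Sdf2l1 was also 2-fold lower in B cells (background 0.4%), monocytes or macrophages (0.687%), dendritic cells (0.381%) and the Il17a cluster (0.847%). Creld2 joined it in monocytes or macrophages, and Creld2 and Manf in dendritic cells.

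Other stress lists were mixed. The 18 immediate early genes, which are also known to respond to cell dissociation, had a median log2 ratio of 0.48 in T cells and 0.44 in the Il17a cluster, 0.05 in B cells and -0.20 in ILC3, with 0 of them 2-fold apart in those classes. Junb had 2216 CPM in KO T cells and 1430 in WT (ratio 1.55, 1.52 to 1.59). In neutrophils Jun, Egr1 and Atf3 were at least 2-fold lower, for example Jun with 461 in KO and 1128 in WT (ratio 0.409, 0.361 to 0.462), and in NK cells Klf2 was (119 in KO and 255 in WT). The p53 target list had a median of 0.53 in T cells, and Cdkn1a, the cell cycle inhibitor, had 339 in KO and 209 in WT (ratio 1.62, 1.53 to 1.72). The oxidative and integrated stress list had a median of 0.20 in T cells, and its only gene 2-fold apart was Gclm in neutrophils (55.4 in KO and 165 in WT). The part of dissociation in the HSP70 gap was not tested.

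**Figure D5:**
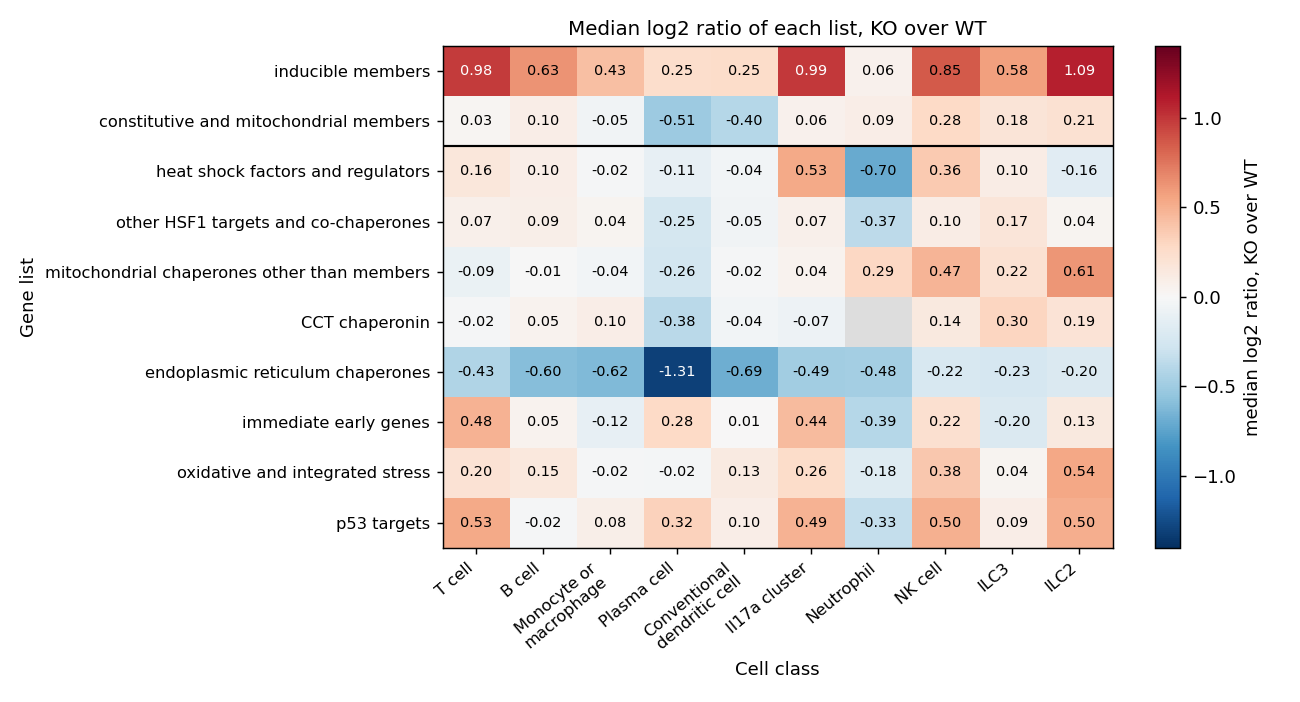
Median log2 ratio (KO over WT) of the inducible members, of the constitutive and mitochondrial members, and of 8 related gene lists (rows) in each compared class (columns). The lists use genes passing the count filter, the 2 member rows all their genes, and grey marks a list with none. The inducible row reaches 1.09 in ILC2 and the endoplasmic reticulum row -1.31 in plasma cells.

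The gap was also read in subsets of cells that move with the library. The share of mitochondrial UMIs was slightly higher in KO, with a median of 2.03% against 1.67% in WT over all kept cells. Among cells with no UMI of the 10 Paneth cell genes, a split chosen after the data were seen, the pair stood at 1032 CPM in 909 KO T cells and 237 in 2958 WT T cells, and at 7233 in KO and 3845 in WT ILC3. In that subset the pair stood at 478 CPM in KO and 103 in WT in the Il17a cluster. It stood at 2007 in KO and 356 in WT in ILC2, a wider gap. Among Xist-only T cells (480 in KO, 1032 in WT) it had 971 in KO and 209 in WT (ratio 4.65, 4.31 to 5.01), and among Y-linked-only T cells (291 in KO, 1163 in WT) 993 in KO and 250.04 in WT (ratio 3.97, 3.67 to 4.30). The T cell gap was thus found in both, somewhat wider among Xist-only cells, and the 2 intervals did not overlap. In NK cells it was 1.32 (1.16 to 1.501) among Xist-only and 2.43 (2.15 to 2.76) among Y-linked-only cells, and in the Il17a cluster 7.76 (6.52 to 9.28) and 3.51 (2.84 to 4.34). How many mice gave these cells is not known, and genotype, library, sort and processing of the tissue cannot be told apart.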

How the data were processed

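The deposited files hold raw UMI counts per gene and cell barcode in 2 matrices, which the authors made with Cell Ranger 7.0.0 on GRCm38, per the submitters' processing notes. The kit end, the annotation release and the use of intronic reads are not stated there. Cells under 200 genes or 500 UMIs (34 KO and 5 WT) or above 20% mitochondrial UMIs (79 and 57) were left out, then doublets called per library with Scrublet in scanpy 1.11.5 (416, 4.79%, and 637, 5.85%). Cells were clustered together (2000 variable genes without heat shock and immediate early genes, 30 components, 20 neighbours, Leiden by leidenalg 0.10.2 at resolution 1). A cluster took a name from at least 3 markers, and a T cell name needed Cd3d, Cd3e, Cd3g and Trac each in at least 25% of its cells. A name was withdrawn where another class had more markers than its own among the 10 leading genes against cells outside the class. This happened to the Il17a cluster, which had met the T cell rule. Clusters 9, 17 and 23, of which 17 and 23 held almost only KO cells and were led by defensin genes, stayed unnamed (539 KO and 460 WT cells). This naming rule was written after clusters were seen.

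Levels (CPM) were computed here from UMIs summed over each class and carry exact Poisson, ratios conditional binomial and shares Clopper-Pearson intervals at 95%. No test was possible with 1 library per genotype. The ratio, interval and thinning steps were tested on simulated data. Named genes are all members, the listed genes at least 2-fold apart, the 3 of each list with the highest level, and the 5 most like Hspa1a plus Hspa1b; other named genes are marked as such. Not every gene that the rule allows is printed. The members and lists were chosen with earlier results of these data known. Positions are from GENCODE M21 and promoters from RefSeq (GRCm38.p6).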

Additional observations from a re-analysis of the deposited data

Results flagged for a closer look

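Some members differed in opposite directions in 2 cell classes, with intervals of counting error on opposite sides of a ratio of 1, and the difference between classes was not tested. The log2 ratio of Dnajb1 was 0.99 in ILC2 and -0.30 in ILC3. That of Hsp90ab1 was 0.33 in ILC3 and -0.37 in plasma cells. Hspa8 had 0.35 in NK cells and -0.60 in neutrophils, Hspd1 had 0.54 in ILC3 and -0.54 in plasma cells, and Hspe1 had 0.40 in ILC2 and -0.75 in plasma cells. In the main plasma cell cluster alone the interval of the Hspd1 ratio included 1 (0.866, 0.729 to 1.03). There the ratio of Hsp90ab1 was 0.891 (0.847 to 0.938) and that of Hspe1 0.665 (0.580 to 0.761). Over all plasma cells the median log2 ratio of all genes passing the filter was itself -0.15. Hspa1a, Hsph1 and Hsp90aa1 were above 0 in all 10 classes.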

How the results depend on the processing

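Of 15 other settings tried in 10 classes, the log2 ratio of Hspa1a was above 0 in 148 of 148 values, that of Hsph1 in 145 and that of Hspa1b in 136. Median log2 ratios are given here as inducible, or as the others (constitutive and mitochondrial). With 1 CPM added, inducible in monocytes or macrophages was 0.71. With 50 added, inducible was 0.76 in T cells, 0.72 in the Il17a cluster and 0.31 in monocytes or macrophages. Centring on all genes passing the filter gave plasma cells 0.40 inducible and -0.36 others. The mean over cells gave plasma cells 0.47 and -0.35, and others 0.19 in T cells. Clusters weighted alike gave inducible 0.10 in monocytes or macrophages, 0.43 in plasma cells and 0.79 in T cells, and others -0.27, -0.21 and, in B cells, 0.18. Under that weighting Hspa1b (-0.010) and Hspd1 (-0.031) in monocytes or macrophages reversed. Clustering with heat shock and immediate early genes gave plasma cells 0.44 inducible and -0.21 others, and others 0.19 in B cells. Doublets kept gave others 0.042 in monocytes or macrophages. Naming each cell by its markers gave inducible 1.06 in ILC3 and 0.42 in dendritic cells, others 0.36 in ILC3, and reversed Dnajb1 in ILC3 (0.42) and Hspe1 in ILC2 (-0.046). Leaving out cells with a Paneth cell UMI, an alternative chosen after seeing the data, gave others -0.45 in dendritic cells.

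Xist-only cells gave inducible 1.12 in ILC3, 0.45 in NK cells, 0.41 in dendritic cells, 0.67 in monocytes or macrophages, 0.54 in plasma cells, 1.13 in T cells and 0.40 in B cells, and others 0.11 in NK cells, -0.50 in dendritic cells and 0.68 in ILC3. They reversed Hspb1 in monocytes or macrophages (-0.23) and Dnajb1 in ILC2 (-0.28). Y-linked-only cells gave inducible 0.35 in ILC3, 0.62 in NK cells, 0.86 in T cells and 0.10 in plasma cells, and others 0.20 in B cells, -0.46 in dendritic cells, -0.15 in monocytes or macrophages and, reversed, -0.18 in ILC3. They reversed Hspb1 in the Il17a cluster (0.16). The cause was not tested. Xist-only neutrophils gave no value (17 WT cells), nor did the Il17a cluster by markers, since no marker list defines it. At 2000 UMIs per cell, 50.5% of KO and 18.2% of WT T cells held the pair. No paired analysis was possible because each genotype has 1 library, and none could be left out. Depth limits Hspb1 in all classes, and Hsph1, Dnajb1, Hspd1 and Hspe1 in neutrophils.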

Other observations

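In unnamed cluster 9, a shallow cluster led by Gm26917 (274 KO and 458 WT cells, median 1188 and 1030 UMIs), the mitochondrial chaperonin had high levels in KO. Hspd1 had 604 CPM in KO and 70.6 in WT, and Hspe1 had 516 in KO and 98.2 in WT. Of the 423 Hspd1 UMIs in KO, 359 (84.9%) lay in 5 cells, and of the 41 in WT, 10 (24.4%) did. The same number of cells held 304 of the 361 Hspe1 UMIs in KO (84.2%). Hsp90ab1 in the same cluster had 807 of 1242 UMIs in 5 KO cells (65.0%) and 76 of 582 in 5 WT cells (13.1%). These cells were in no compared class.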
